A study of Ovis aries with 18 samples.

Results

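oar-miR-191, oar-miR-21 and oar-miR-199a-3p are microRNAs (miRNAs) known to be abundant in blood platelets, and they are described here in the plasma of sheep kept on a standard or a high-fat diet. They were chosen by name, as 3 rows of the raw count matrix, out of 364 features, 107 of which carry a miRNA name. All 3 passed the filter on low counts, which kept 168 features (54 named). Small RNA was sequenced from 200 µL of plasma of female Polish Longwool ewes that were all ovariectomized and all carried estradiol implants. Of these, 6 were fed a standard diet (CTRL) and 6 a high-fat diet (OBESE) that lasted 14 weeks. Blood was drawn at weeks 7, 10 and 14, and each of the 6 groups of diet and week holds 3 libraries, 18 in all. The ages of the ewes are not given, nor is it stated how many ewes stand behind each library. A p-value here thus compares a difference with the spread among libraries, some of which may be technical, and the same ewes may recur across the weeks of a diet.

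A miRNA is a short RNA that guides Argonaute proteins to messenger RNAs and lowers their output. Platelets have no nucleus and carry miRNAs inherited from megakaryocytes, and they release them in vesicles and protein complexes when activated. Platelets left in plasma after centrifugation also add to its miRNAs. miR-191 is found at high levels in many blood cells and is transcribed together with miR-425. miR-21 is one of the most studied miRNAs of growth, inflammation and fibrosis, and lowers the tumour suppressor PDCD4. miR-199a-3p comes from the precursor that also gives miR-199a-5p, is abundant in fibroblasts and other mesenchymal cells, and is known to lower MTOR and MET. None of the 3 is made by platelets alone. In plasma, fewer platelets and less miRNA per platelet cannot be told apart.

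The RefSeq gene table of the sheep genome places the 3 miRNA genes apart from each other. MIR21 lies inside VMP1, a gene of autophagy, with PTRH2 and TUBD1 as the neighbouring genes. MIR199A lies inside DNM3, which encodes a dynamin, between METTL13 and PIGC. MIR191 lies inside no protein-coding gene of the table and between NDUFAF3 and DALRD3. The table lists no other miRNA gene within 10 kb of any of them. Of the miRNAs known to be transcribed with a member (miR-425, miR-199a-5p, miR-214 and the other arm of miR-21), 0 of 4 are among the named features used here.

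The 18 libraries held between 388574 and 1269829 counts, with 222 to 292 features detected. TMM factors, which scale each library to the bulk of its features, lay between 0.653 and 1.19. They were lowest in CTRL week 7 replicate 1 and CTRL week 14 replicate 3. Levels are given as CPM, a library's counts relative to its total as scaled by TMM. A miRNA is covered by 1 read whole, so levels of the 3 can be set side by side without a correction for length, though the ligation of adapters may favour some miRNAs over others.

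The 3 miRNAs stood at very different levels. miR-191 was the 6th most abundant of the 168 features tested and the 4th of the named ones, at 34410 ± 7240 CPM and 3.48% ± 0.899 of all counts (SD, n = 18). miR-21 ranked 39th, at 1062 ± 232 CPM and 0.109% ± 0.033 of counts. miR-199a-3p ranked 64th, at 486.8 ± 103 CPM and 0.0491% ± 0.0127 of counts. The mean level of miR-191 was thus 32.4 times that of miR-21 and 70.7 times that of miR-199a-3p, and that of miR-21 was 2.18 times that of miR-199a-3p. The order miR-191, miR-21, miR-199a-3p held in all 18 libraries.

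Over the 18 libraries, counting error was smaller than the spread between libraries. Within a group this did not always hold. In CTRL week 10 the SD of miR-199a-3p was 4.96% of its mean. The counting errors of replicates 1 to 3 there were 7.88%, 6.47% and 4.46%, so that SD may be too small. The lowest count of miR-199a-3p was 161, in CTRL week 10 replicate 1, with an exact 95% Poisson interval of 137 to 188. For miR-21 the lowest count was 316, and for miR-191 it was 11891. These intervals cover counting error only. The biological coefficient of variation, edgeR's estimate of the spread beyond counting, was 0.23 for miR-191, 0.253 for miR-21 and 0.249 for miR-199a-3p, against a median of 0.336 over the 168 features. From the steadiest feature upward, these values ranked 17th, 41st and 36th.

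miR-191 was measured at week 7 at 31320, 27500 and 31400 CPM in CTRL replicates 1 to 3 and at 32540, 40440 and 31750 CPM in OBESE. All 3 OBESE libraries lay above the CTRL libraries, the closest pair being 31750 and 31400 CPM. As a share of counts, without TMM, the diets overlapped, with OBESE replicate 3 at 2.83% below CTRL replicate 3 at 3.29%. At week 10 miR-191 stood at 28360, 40120 and 42690 CPM in CTRL and at 36500, 54890 and 32480 CPM in OBESE. OBESE replicate 2 held the highest value of the 18 libraries, and the diets overlapped. At week 14 it stood at 38010, 29950 and 32520 CPM in CTRL and at 27960, 37620 and 23300 CPM in OBESE. The lowest value of the 18 was that of OBESE replicate 3, and the diets overlapped again.

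By group, miR-191 averaged 41290 ± 11900 CPM in OBESE week 10, 37060 ± 7640 in CTRL week 10, 34910 ± 4810 in OBESE week 7, 33490 ± 4120 in CTRL week 14, 30070 ± 2230 in CTRL week 7 and 29630 ± 7310 in OBESE week 14 (SD, n = 3). No neighbours in this order differed by more than the larger of their SDs.

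miR-21 was measured at week 7 at 732.3, 896.7 and 1148 CPM in CTRL replicates 1 to 3 and at 1428, 1288 and 1086 CPM in OBESE. CTRL replicate 3 lay above OBESE replicate 3, so the diets overlapped, although the OBESE libraries included the highest value of the 18. At week 10 it stood at 1195, 1018 and 1400 CPM in CTRL and at 1116, 711.5 and 866 CPM in OBESE. Here OBESE replicate 2 held the lowest value of the 18, and OBESE replicate 1 fell between the CTRL libraries. At week 14 it stood at 1361, 893.9 and 903.5 CPM in CTRL and at 1327, 831.6 and 914.1 CPM in OBESE. Replicate 1 was the highest library in both diets, and the ranges lay almost on each other.

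By group, miR-21 averaged 1267 ± 172 CPM in OBESE week 7, 1205 ± 191 in CTRL week 10, 1053 ± 267 in CTRL week 14, 1024 ± 265 in OBESE week 14, 925.6 ± 209 in CTRL week 7 and 897.7 ± 204 in OBESE week 10 (SD, n = 3). Again no neighbours in the order differed by more than the larger SD. The OBESE groups of weeks 7 and 10 stood at opposite ends.

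miR-199a-3p was measured at week 7 at 584, 455.3 and 456.9 CPM in CTRL replicates 1 to 3 and at 457.8, 446 and 523.7 CPM in OBESE. The OBESE libraries lay within the range of CTRL except for 446 CPM, just under it. At week 10 it stood at 384, 360.6 and 398 CPM in CTRL and at 454, 443.1 and 761.8 CPM in OBESE. All 3 OBESE libraries lay above all CTRL libraries, and OBESE replicate 3 was the highest of the 18. At week 14 it stood at 381, 623.8 and 493.1 CPM in CTRL and at 557.8, 394.7 and 587.6 CPM in OBESE, with full overlap.

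By group, miR-199a-3p averaged 553 ± 181 CPM in OBESE week 10, 513.4 ± 104 in OBESE week 14, 499.3 ± 122 in CTRL week 14, 498.7 ± 73.9 in CTRL week 7, 475.8 ± 41.9 in OBESE week 7 and 380.8 ± 18.9 in CTRL week 10 (SD, n = 3). The first 5 groups differed from their neighbours by less than the larger SD. CTRL week 10 was lowest, and its mean lay under that of OBESE week 7 by more than the larger SD. This pair differs in both diet and week and was not tested.

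**Figure D1:**
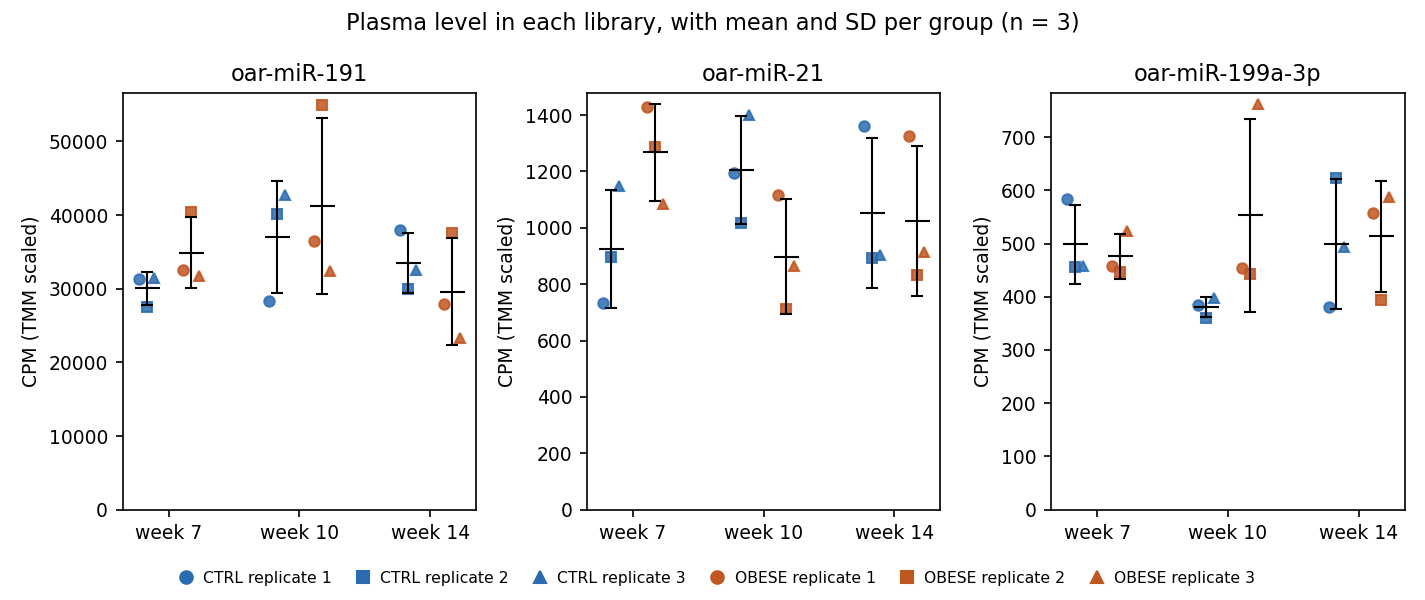
Level of each miRNA in every library, in CPM on a linear axis from 0, by week and diet; points are libraries marked by replicate number and bars are group means with SD (n = 3). Diets overlap at most weeks, while at week 10 the 3 OBESE libraries of miR-199a-3p, at 443.1 to 761.8 CPM, sit above the CTRL libraries at 360.6 to 398 CPM.

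Whether the high-fat diet was accompanied by other levels of the 3 miRNAs was first asked over the whole period, as the mean of the OBESE minus CTRL differences of the 3 weeks. With SDs over 9 libraries per diet, miR-191 averaged 35270 ± 8970 CPM in OBESE against 33540 ± 5410 CPM in CTRL. miR-21 averaged 1063 ± 249 and 1061 ± 229 CPM, and miR-199a-3p 514 ± 112 and 459.6 ± 92.9 CPM. The fitted log2 fold change was 0.06 for miR-191 (SE 0.129, edgeR adjusted p = 0.88), with a 95% interval from -0.21 to 0.34. For miR-21 it was -0.0033 (SE 0.147, edgeR adjusted p = 0.994), with an interval from -0.31 to 0.31. For miR-199a-3p it was 0.17 (SE 0.145, edgeR adjusted p = 0.573), with an interval from -0.14 to 0.48. Without OBESE week 10 replicate 3 the value of miR-199a-3p was 0.07. The intervals leave room for differences in either direction of up to those sizes.

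None of the 3 passed an adjusted p of 0.05 over the 168 features, and neither did any other feature in edgeR (0%). At an unadjusted p under 0.05, edgeR called 11.3% of the features and 0 of the 3 miRNAs. On the same 168 features limma-voom gave 0 calls after adjustment and 20 at an unadjusted p under 0.05. DESeq2, run on all 364 features with 166 adjusted after its own filter, gave 3 and 27, so its counts have another base. None of these calls was 1 of the 3. Without TMM the median of all features moved from -0.002 to 0.162 for this difference, and the 3 miRNAs moved with it, to 0.23 for miR-191, 0.16 for miR-21 and 0.36 for miR-199a-3p. Directions are therefore relative to the bulk of the features, and the sign of miR-21 turned.

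At week 7, miR-191 differed between OBESE and CTRL by 0.22 on the log2 scale (SE 0.224, edgeR adjusted p = 0.786), and miR-21 one of 0.45 (SE 0.255, edgeR adjusted p = 0.766). miR-199a-3p had -0.07 (SE 0.252, edgeR adjusted p = 0.979), and 0.20 without TMM. edgeR called 0% of the 168 features after adjustment and 5.36% at an unadjusted p under 0.05, and 0 of the 3 miRNAs by either rule. Diets did not overlap for 8.93% of the features and for 1 of the 3 miRNAs, miR-191. Without OBESE replicate 2 the value of miR-191 was 0.04. That of miR-21 was 0.28 without CTRL replicate 1 and 0.26 without OBESE replicate 1.

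At week 10, miR-199a-3p differed by 0.54 on the log2 scale (SE 0.252), with a 95% interval from 0.00 to 1.07. Its unadjusted edgeR p was 0.0484 and its edgeR adjusted p was 0.676, so it did not pass. DESeq2 gave an unadjusted p of 0.036 and limma-voom one of 0.0778. Without OBESE replicate 3, the library at 761.8 CPM, the log2 fold change was 0.29. miR-191 had 0.16 (SE 0.224, edgeR adjusted p = 0.837) and -0.06 without OBESE replicate 2. miR-21 had -0.42 (SE 0.255, edgeR adjusted p = 0.722) and -0.24 without that same replicate.

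edgeR called 0% of the features at week 10 after adjustment and 6.55% at an unadjusted p under 0.05, the latter including 1 of the 3 miRNAs. Diets did not overlap for 13.1% of the features and for 1 of the 3, miR-199a-3p. Of its libraries, those of CTRL were at 0.0351% to 0.0414% of counts and those of OBESE at 0.0448% to 0.084%, so the absence of overlap did not hang on the TMM scaling. The closest shares were those of CTRL replicate 1 and OBESE replicate 2, with counting errors of 7.88% and 4.36%. Counting error alone could thus close this gap.

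At week 14, when the high-fat feeding ended, the log2 fold changes were -0.18 for miR-191 (SE 0.224, edgeR adjusted p = 0.822), -0.04 for miR-21 (SE 0.254, edgeR adjusted p = 0.951) and 0.04 for miR-199a-3p (SE 0.251, edgeR adjusted p = 0.951). edgeR called 0% of the features after adjustment and 7.74% at an unadjusted p under 0.05, and diets did not overlap for 9.52%. For the 3 miRNAs each of these counts was 0. The value of miR-191 was -0.51 without OBESE replicate 2, and that of miR-21 was -0.29 without OBESE replicate 1 and 0.17 without CTRL replicate 1.

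**Figure D2:**
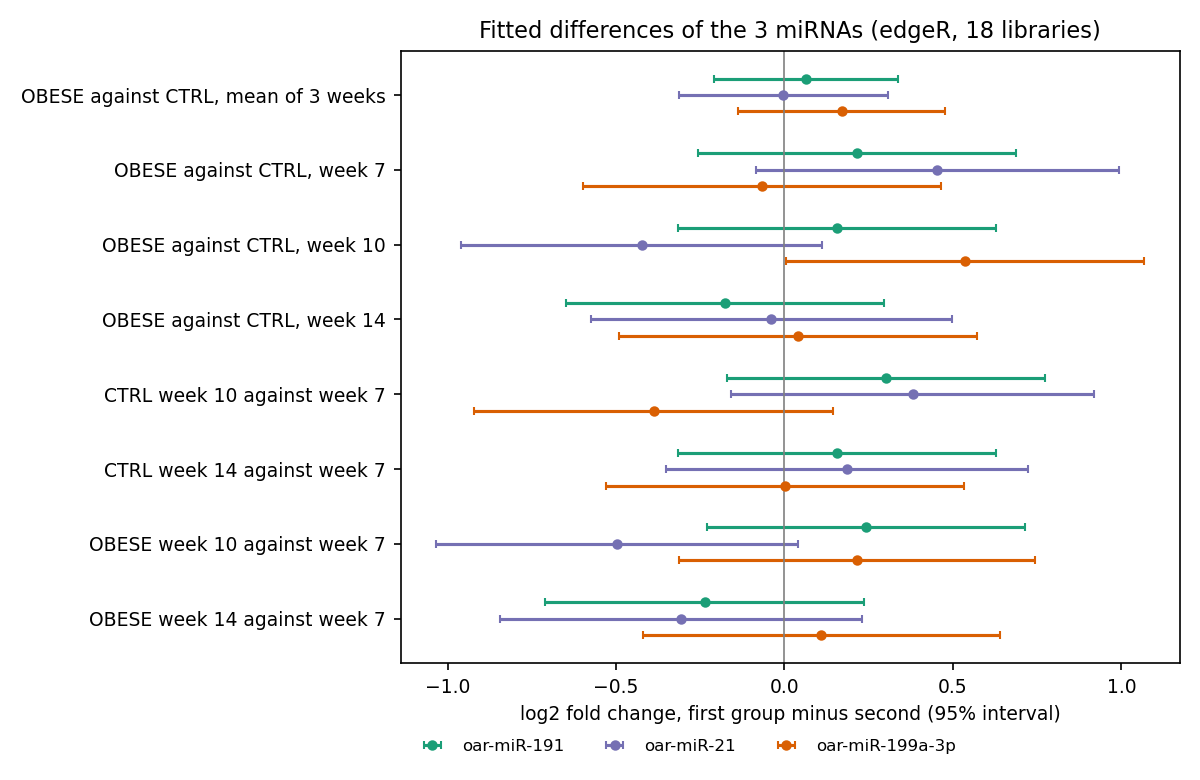
Log2 fold change of each miRNA (horizontal axis, points) with 95% intervals from edgeR (bars) in each diet and week comparison; the vertical line marks no difference. All intervals cross 0 except that of miR-199a-3p at week 10, which starts at 0.00, and no value passed after adjustment over the 168 features.

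The differences of miR-21 at weeks 7 and 10 had opposite signs, 0.45 and -0.42. The interaction of diet and week tests such a difference directly. It gave an unadjusted edgeR p of 0.0776 and an edgeR adjusted p of 0.925 for miR-21. For miR-191 the edgeR adjusted p of the interaction was 0.988 and the unadjusted p 0.429, and for miR-199a-3p they were 0.988 and 0.224. edgeR called 0% of the features for the interaction after adjustment and 4.17% at an unadjusted p under 0.05, with 0 of the 3 in both.

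Within the CTRL ewes, week 10 was compared with week 7. miR-191 had a log2 fold change of 0.30, miR-21 of 0.38 and miR-199a-3p of -0.39, each with an edgeR adjusted p of 0.947. miR-199a-3p was lower in all 3 week 10 libraries (360.6 to 398 CPM) than in all 3 of week 7 (455.3 to 584 CPM). This was 1 of the 3 miRNAs without overlap, against 4.76% of all features, and as a share of counts the weeks did overlap (0.0351% to 0.0414% against 0.0381% to 0.0478%). edgeR called 0% of features after adjustment and 1.79% without it, and 0 of the 3 in both. Without CTRL week 7 replicate 1 the value of miR-199a-3p was -0.22. For week 14 against week 7 in CTRL, the values were 0.16, 0.19 and 0.0021, with edgeR adjusted p of 0.977, 0.977 and 0.997. Leaving out 1 library moved miR-191 between 0.052 (without CTRL week 14 replicate 1) and 0.266 (without CTRL week 14 replicate 2). There, 0% and 3.57% of features were called and 5.36% had no overlap, with 0 of the 3 in each.

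Within the OBESE ewes, week 10 against week 7 gave log2 fold changes of 0.24 for miR-191, -0.50 for miR-21 and 0.22 for miR-199a-3p, with edgeR adjusted p of 0.897, 0.897 and 0.923. With 1 library left out, miR-191 ran from 0.0638 (without OBESE week 10 replicate 2) to 0.554 (without OBESE week 10 replicate 1). miR-199a-3p ran from 0.0111 (without OBESE week 10 replicate 3) to 0.483 (without OBESE week 10 replicate 1). The unadjusted edgeR p of miR-21 was 0.0674, and its value was -0.28 without OBESE week 10 replicate 2 or without OBESE week 7 replicate 1. Its week 10 libraries (711.5, 866 and 1116 CPM) overlapped with those of week 7 (1086, 1288 and 1428 CPM) by 1 library. edgeR called 0% of the features after adjustment and 4.17% without it, and 16.1% had no overlap. Week 14 against week 7 gave -0.24, -0.31 and 0.11, with edgeR adjusted p of 0.837, 0.79 and 0.94. Here miR-191 ran from -0.45 (without OBESE week 14 replicate 2) to -0.0597 (without OBESE week 7 replicate 2), and miR-21 from -0.561 (without OBESE week 14 replicate 1) to -0.133 (without OBESE week 7 replicate 1). There, 0% of features were called after adjustment and 7.74% without it, and 13.7% had no overlap. In both comparisons 0 of the 3 miRNAs were called or had no overlap. The 4 week comparisons share the week 7 libraries of their diet.

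Ratios between the 3 miRNAs do not depend on library totals or scaling, since both counts come from the same library. The count ratio of miR-191 to miR-21 had a median of 31.04 and ran from 21.07 in OBESE week 14 replicate 1 to 77.15 in OBESE week 10 replicate 2. That of miR-191 to miR-199a-3p had a median of 69.91, from 39.64 in OBESE week 14 replicate 3 to 123.9 in OBESE week 10 replicate 2. That of miR-21 to miR-199a-3p had a median of 2.24, with 1.14 in OBESE week 10 replicate 3 as its lowest value and 3.57 in CTRL week 14 replicate 1 as its highest. Between the extreme libraries the ratios thus differed 3.66-fold, 3.12-fold and 3.14-fold.

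Averaged over the weeks, the log2 ratios differed little between the diets. OBESE minus CTRL was 0.05 for miR-191 to miR-21 (two-sided exact permutation of diets within weeks, p = 0.816), -0.11 for miR-191 to miR-199a-3p (exact p = 0.649) and -0.16 for miR-21 to miR-199a-3p (exact p = 0.532). Adjusted over the 3 ratios, each exact p was 0.816. By week, the difference of the miR-21 to miR-199a-3p ratio was 0.53 at week 7, -0.93 at week 10 and -0.09 at week 14. The average thus joins weeks of opposite sign, and the ratios were not tested at single weeks. The SD of the log2 ratios over the 18 libraries was 0.435, 0.491 and 0.504, larger than the SD of log2 CPM of the single miRNAs (0.285 for miR-191, 0.319 for miR-21 and 0.285 for miR-199a-3p). The single SDs depend on the scaling. On shares of counts they were 0.376, 0.479 and 0.341, so that miR-21 then varied more than its ratio with miR-191.

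**Figure D3:**
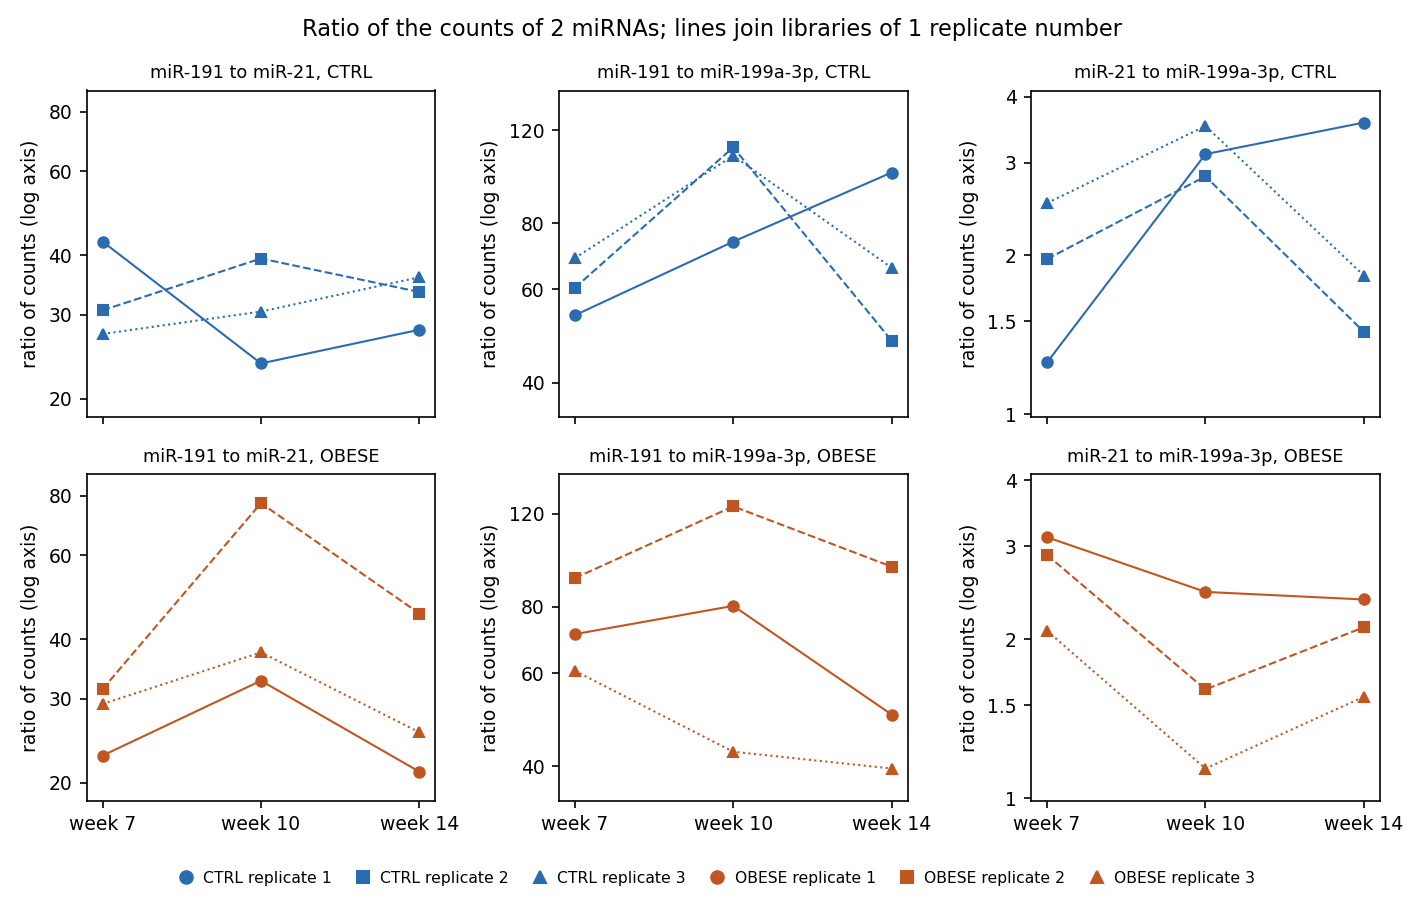
Count ratios between the 3 miRNAs in every library on a logarithmic axis, by week, CTRL in the upper and OBESE in the lower panels; lines join libraries of the same replicate number, which need not be the same ewe. The ratio of miR-191 to miR-21 is highest in OBESE week 10 replicate 2 (77.15) and that of miR-21 to miR-199a-3p lowest in OBESE week 10 replicate 3 (1.14).

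Covariation was measured on log2 CPM over the 18 libraries, for 3 pairs. miR-191 and miR-21 had a Pearson r of -0.0309 (permutation p = 0.904) and a Spearman rho of 0.121 (permutation p = 0.634). Without OBESE week 10 replicate 2 and OBESE week 14 replicate 3, the libraries farthest from the median of miR-191, r was 0.267. Within CTRL libraries r was 0.54 (exact p = 0.134) and within OBESE libraries -0.368 (exact p = 0.337). No relation passed for this pair, and whether r differs between the diets was not tested.

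miR-191 and miR-199a-3p ran in opposite directions, with r = -0.474 (permutation p = 0.0472, adjusted over the 3 pairs 0.142) and rho = -0.595 (permutation p = 0.0108, adjusted 0.0324). The rank correlation passed after adjustment and the Pearson correlation did not. Without the same farthest libraries r was -0.482 (permutation p = 0.059). With each library centred on its group mean, r was -0.627 (exact permutation within groups, p = 0.0385, adjusted 0.115). Within the diets r was -0.513 in CTRL (exact p = 0.157) and -0.548 in OBESE (exact p = 0.132), and rho was -0.417 (exact p = 0.27) and -0.85 (exact p = 0.00607). Averaged over weeks into 6 values of diet and replicate number, r was -0.72 (exact p = 0.169). These p-values treat libraries as independent, and may be too small where libraries share ewes.

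miR-21 and miR-199a-3p had r = -0.378 (permutation p = 0.121, adjusted 0.181) and rho = -0.298 (permutation p = 0.228, adjusted 0.342). Without OBESE week 10 replicate 2 and CTRL week 7 replicate 1, the libraries farthest from the median of miR-21, r was -0.406 (permutation p = 0.119). Within CTRL r was -0.75 (exact p = 0.0213) and within OBESE -0.0778 (exact p = 0.848). No p-value within a diet was adjusted for any of the pairs, and the difference between the diets was not tested.

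**Figure D4:**
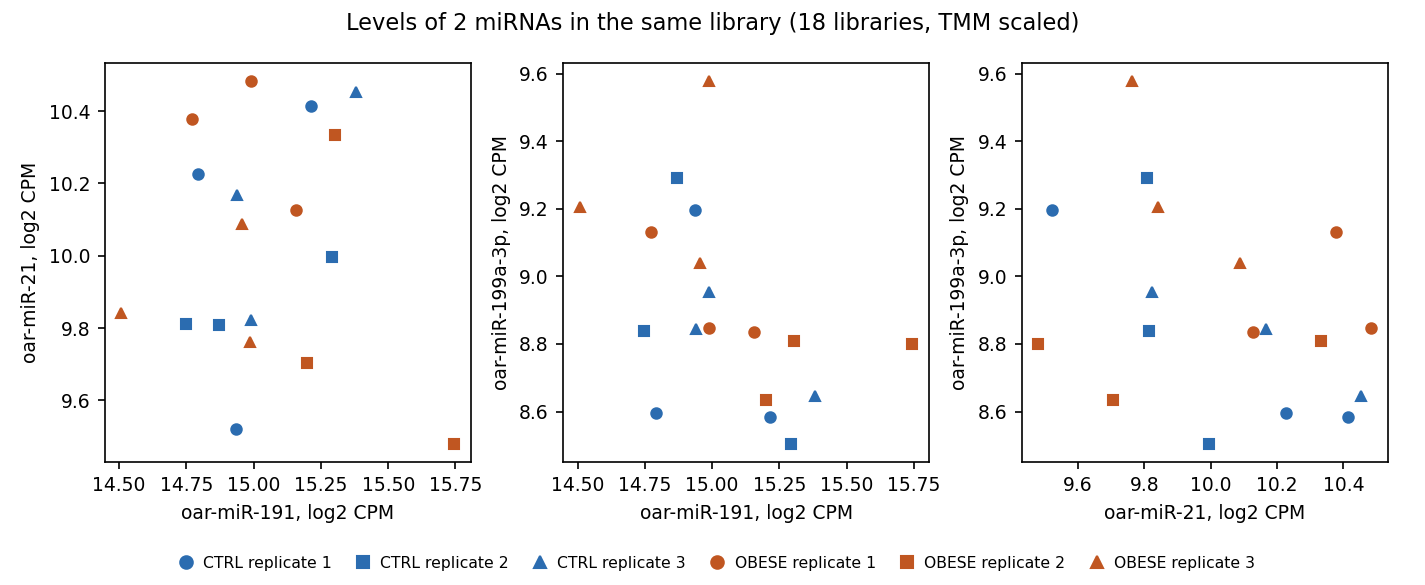
Log2 CPM of each pair of miRNAs in the 18 libraries, coloured by diet and shaped by replicate number. The points of miR-191 and miR-199a-3p slope downward (r = -0.474), and the pair of miR-191 and miR-21 shows no slope (r = -0.0309).

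All 3 correlations changed sign with the scaling. On shares of counts, without the TMM factor, r was 0.505 for miR-191 and miR-21, 0.0639 for miR-191 and miR-199a-3p and 0.282 for miR-21 and miR-199a-3p, and none passed after adjustment (smallest adjusted permutation p = 0.0986). With DESeq2 size factors r was -0.0262, -0.473 and -0.409, close to the values with TMM. Without both libraries of lowest TMM factor, but with TMM, r was -0.0865, -0.466 and -0.309. The opposite course of miR-191 and miR-199a-3p is therefore one relative to the bulk of the features, and on shares of counts it was not seen.

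**Figure D5:**
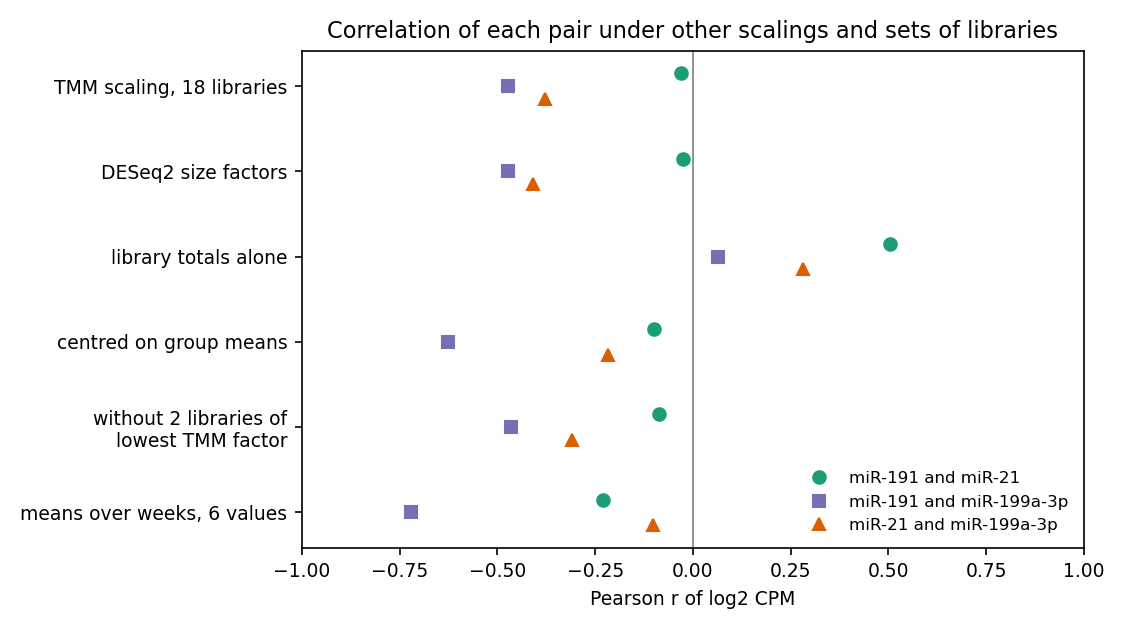
Pearson r of log2 CPM (horizontal axis) for the 3 pairs under TMM, DESeq2 size factors, library totals alone, values centred on group means, without both libraries of lowest TMM factor, and as means over weeks. All r are negative except with library totals alone, at 0.505, 0.0639 and 0.282.

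The features most like each miRNA were taken by Spearman rho of log2 CPM over the 18 libraries. They share libraries, depth and scaling with it, so rho is a description, and its median over all other features was between -0.028 and -0.001. Features without a miRNA name are written as "unnamed miRNA" with the running number of the files. miR-191 was most like unnamed miRNA 59 (rho 0.73), miR-30d (0.70), miR-30b (0.62), unnamed miRNA 34 (0.60) and miR-23a (0.60). Of these miR-30d, a member of the miR-30 family, was the most abundant, at 10100 CPM. At the other end of the order stood miR-382-5p (-0.73), miR-485-5p (-0.65) and miR-199a-3p (-0.60).

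miR-21 was most like unnamed miRNA 47 (0.82), unnamed miRNA 11 (0.68), miR-26b (0.66), unnamed miRNA 37 (0.66) and unnamed miRNA 5 (0.64). The next named features were miR-17-5p (0.41) and miR-10a (0.40). miR-16b, the most abundant feature of the plasma, was the least like it (-0.54). miR-199a-3p was most like unnamed miRNA 75 (0.72), miR-127 (0.59), miR-143 (0.58), miR-382-5p (0.57) and miR-323c (0.56). miR-127, miR-382-5p and miR-323c are encoded in the imprinted DLK1-DIO3 region, and miR-143 is a miRNA of smooth muscle. miR-382-5p was thus among the features most like miR-199a-3p and was the one least like miR-191. Without TMM these rho stayed positive, at 0.87 for miR-191 with miR-23a, 0.91 for miR-21 with unnamed miRNA 47 and 0.54 for miR-199a-3p with miR-382-5p, while that of miR-191 with miR-199a-3p was 0.09.

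Other cells that feed plasma were followed by lists of their miRNAs, none of which is made in 1 cell type alone. Of 16 other miRNAs abundant in platelets, 6 were among the features tested (miR-103, miR-22-3p, miR-221, miR-23a, miR-26a and miR-27a). miR-126 and miR-223, which are also in the vessel wall and the myeloid list, are not among the named features used here. The summed level of the 6 was 4454 to 5086 CPM in CTRL and 4413 to 5990 CPM in OBESE libraries, about 1 order of magnitude under miR-191 alone. In the diet difference averaged over weeks, 5 of the 6 had positive values (6 without TMM), with a median of 0.11 (0.28 without TMM) beside -0.002 (0.162) over all features. The most abundant, miR-26a, stood at 1367 ± 289 CPM (SD, n = 18) and differed between the diets by 0.32 on the log2 scale (SE 0.132, edgeR adjusted p = 0.285). None of the 6 passed.

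The summed level of these 6 miRNAs had r = -0.00255 with miR-191 (permutation p = 0.992), -0.0669 with miR-21 (permutation p = 0.791) and 0.282 with miR-199a-3p (permutation p = 0.254). Their Spearman rho were 0.00722, -0.166 and 0.333, and none passed after adjustment over 24 relations. Without OBESE week 14 replicates 1 and 2, the libraries farthest from the median of the list, r was 0.0413, -0.0778 and 0.486. Within CTRL r was -0.59 with miR-191, -0.605 with miR-21 and 0.779 with miR-199a-3p, and within OBESE it was 0.0675, 0.113 and -0.0986. These values within a diet, and the difference between the diets, were not tested. A sum need not stand for each of its members. miR-23a, 1 of the 6, was among the 5 features most like miR-191 (rho 0.60), and the other members of the list were not.

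Of 8 red blood cell miRNAs, 3 were tested (miR-16b, miR-25 and miR-106b), and the defining miR-451, miR-486 and miR-144 are not among the named features used here. Their sum ran from 397500 to 829300 CPM in CTRL and from 359500 to 579100 CPM in OBESE libraries, nearly all of it miR-16b at 482800 ± 126000 CPM (SD, n = 18). All 3 had negative log2 fold changes, with a median of -0.28 (without TMM 1 was positive and the median was -0.06), and none passed. miR-21 had r = -0.529 with this sum (permutation p = 0.0214, adjusted over 24 relations 0.115) and rho = -0.538 (permutation p = 0.0229, adjusted 0.243). Without CTRL week 7 replicate 1 and CTRL week 14 replicate 3 r was -0.382, within CTRL -0.76 and within OBESE -0.361. With each library centred on its group mean, r was -0.724 (exact permutation within groups, p = 0.00476, not adjusted). miR-191 had r = -0.139 and miR-199a-3p r = 0.181 with it. Both of the libraries left out have the lowest TMM factors, and that factor had r = 0.528 with miR-21 (permutation p = 0.0204, adjusted 0.115). Centred on group means, the TMM factor had r = 0.697 with miR-21 (exact permutation within groups, p = 0.00928, not adjusted). The red cell sum is itself scaled by the TMM factor. Its r with miR-21 and those of the factor are of similar size and opposite sign, so they should not be counted as separate relations. The part of red cells in the values of miR-21 was not tested.

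The other lists held few tested features. Of 4 lymphocyte miRNAs only miR-150 was tested, at 7018 ± 6000 CPM (SD, n = 18). Its level had r = 0.639 with miR-191 (permutation p = 0.00397, adjusted over 24 relations 0.0953) and rho = 0.488 (permutation p = 0.042, adjusted 0.252). Without OBESE week 10 replicate 2 and CTRL week 10 replicate 2, the libraries farthest from the median of miR-150, r was lower, at 0.365. With libraries centred on group means r was 0.485 (exact permutation within groups, p = 0.078, not adjusted). Within CTRL it was 0.499 and within OBESE 0.755, which were not tested. With miR-21 the r of miR-150 was -0.0408 and with miR-199a-3p it was -0.13. The vessel wall list was represented by miR-143 (1 of 3), at 2986 ± 732 CPM, with r = 0.516 to miR-199a-3p (permutation p = 0.0288, adjusted 0.115) and -0.517 to miR-191 (permutation p = 0.0264, adjusted 0.115). Without the libraries farthest from its median r was 0.424 and -0.256, and with libraries centred on group means it was 0.617 (exact p = 0.0154, not adjusted) and -0.388 (exact p = 0.22).

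Of 5 liver miRNAs 2 were tested, led by miR-194 at 89.04 ± 32.5 CPM, and of 4 muscle miRNAs 1, miR-133 at 22.7 ± 28.5 CPM (SD, n = 18). Neither list reached an adjusted p of 0.05 with any of the 3 miRNAs. Over the 18 libraries miR-133 had r = 0.289 with miR-191 (permutation p = 0.24) and rho = 0.276 (permutation p = 0.267). With libraries centred on group means, this r was 0.604 (exact permutation within groups, p = 0.016, not adjusted). Within CTRL it was 0.0716 and within OBESE 0.708, which were not tested. The level of miR-133 went down to 2.385 CPM in CTRL and 7.681 CPM in OBESE libraries. These levels are near the floor, where counting error is large. Of 3 myeloid miRNAs 0 were among the named features used here. For depth, the library total had r = 0.553 with miR-191 (permutation p = 0.0168, adjusted 0.115) and rho = 0.451 (adjusted permutation p = 0.28), so the relation did not pass. Centred on group means, r was 0.447 (exact p = 0.183). Against these stood r of -0.0362 with miR-21 and 0.00751 with miR-199a-3p. Its part in the values of miR-191 was not tested. Over all 24 relations the smallest adjusted permutation p was 0.0953.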

How the data were processed

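The 3 members, the comparisons and the miRNA lists were chosen with earlier results of these data known. Per the labels' protocols, libraries came from a QIAseq kit with molecular identifiers for removing duplicates and were sequenced on an AVITI platform. The submitters' processing notes list Bowtie 1.3.1, cutadapt 4.9 and DESeq2 1.42. The genome build and the handling of reads that match several miRNAs are not given in the sources used. The authors deposited raw counts per feature, for each library and as 1 matrix, which differed in 0 values. Whether a count is a molecule or a read is not stated. The RefSeq gene table served for names and neighbours only. No sequence was at hand, so none is printed, and unnamed features may include copies of named miRNAs.

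Of 364 features, 168 passed filterByExpr (minimum count 10 and minimum total 15) and were scaled by TMM in edgeR 4.0.16 (R 4.3.3). A quasi-likelihood model of 6 groups was fitted to all 18 libraries (12 residual degrees of freedom), with two-sided tests and Benjamini-Hochberg adjustment over the 168 features at 0.05. SEs were derived from the F statistic. Log2 CPM used a prior count of 2. Permutation tests (scipy 1.17.1) used 100000 resamples, or all arrangements where called exact. Exact tests of 3 libraries against 3 cannot go below 0.1. Alternatives were DESeq2 1.42.0 on all 364 features, limma-voom (limma 3.58.1), other scaling, no filter, fewer libraries and replicate blocks. Replicates were not duplicates (smallest chi-square per degree of freedom between replicates 30.2). Features named are the 3 miRNAs, for each the 5 of highest rho (with further named ones until 3 are named), and each list's most abundant tested member. The features of lowest rho and other list members were named after their values were seen, and the correlations with lists, TMM factor and library total were added after the data were seen.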

Additional observations from a re-analysis of the deposited data

How the results depend on the processing

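In no alternative was 1 of the 3 miRNAs called in any comparison. Among their log2 fold changes, 403 kept their sign when 1 library was left out and 29 turned, and 181 and 11 did so under the other alternatives. Each of the 18 libraries was left out in turn for every comparison, also where it belonged to neither group compared. Such fits keep both groups whole, so the count of kept signs overstates how stable the signs are. The number of features called for the mean of weeks was 3 with DESeq2 and 4 without the filter, against 0, and 0 to 2 with 1 library left out (1 without OBESE week 7 replicate 2, 2 without OBESE week 10 replicate 1, 1 without CTRL week 14 replicate 2), and at week 14 it was 0 to 1 (1 without CTRL week 14 replicate 2). The mean-of-weeks value of miR-21 turned positive with DESeq2 (0.005039), limma-voom (3.63e-05), no TMM (0.159), DESeq2 size factors (0.00461) and no filter (0.03363). Without TMM, miR-199a-3p at week 7 was 0.1994 and miR-21 at week 14 was 0.09858. Without both libraries of lowest TMM factor, miR-199a-3p at week 7 was 0.008414, and with only the libraries of week 14 it was -0.06888 at that week. In CTRL week 14 against week 7 it was -0.01306 with limma-voom. The correlations turned without TMM, to 0.505, 0.0639 and 0.282. With 1 library left out, log2 fold changes ran for the mean of weeks from -0.0557 to 0.11 (miR-191) and -0.107 to 0.0686 (miR-21). At week 7 they ran from -0.154 to 0.0244 (miR-199a-3p), at week 10 from -0.0639 to 0.344 (miR-191), and at week 14 from -0.29 to 0.173 (miR-21) and -0.167 to 0.171 (miR-199a-3p). For CTRL week 14 against week 7 they ran from -0.0443 to 0.372 (miR-21) and -0.134 to 0.192 (miR-199a-3p), and for OBESE week 14 against week 7 from -0.0198 to 0.265 (miR-199a-3p). The log2 ratios ran from -0.0731 to 0.133 (miR-191 to miR-21) and -0.231 to 0.0273 (miR-191 to miR-199a-3p). The correlation of miR-191 and miR-21 ran from -0.146 to 0.322, and that of miR-191 and miR-199a-3p from -0.569 to -0.413, passing in 1 case, without CTRL week 10 replicate 1 (permutation p = 0.0496 after adjustment). The cause of these changes was not tested. Replicate numbers are shared by the groups, and same-numbered libraries deviated together within a diet (mean r 0.324 in CTRL and 0.362 in OBESE). For different numbers within a diet the mean r was -0.161 in CTRL and -0.18 in OBESE, with 0 and 2 of 18 pairs over 0.1. Across diets the mean r was 0.118 for the same number and -0.059 for different numbers. Of the same-numbered pairs, 1 of 9 in each diet was under 0.1, and the labels do not link them, so they were not taken as pairs. With the replicate number as a block, 0 features were called in every comparison and miR-191, miR-21 and miR-199a-3p had 0.0425, -0.0155 and 0.154 for the mean of weeks. With diet by number as the block, miR-199a-3p had -0.006749 in CTRL week 14 against week 7, the 1 sign that turned. Of the libraries, 9 of 9 in CTRL and 8 of 9 in OBESE correlated best with their own number, a hint from the data and not from the design. Depth limits miR-199a-3p most, at 161 to 612 counts.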

Other observations

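After the values were seen, the order of the replicate numbers was compared over weeks 7, 10 and 14 within each diet with Kendall's W, which is 1 where the order is the same at every week. In OBESE, miR-191 was highest in replicate 2 and lowest in replicate 3 at each week (means over weeks 44320 ± 9260, 32330 ± 4270 and 29170 ± 5110 CPM for replicates 2, 1 and 3, SD, n = 3 weeks), W = 1. miR-199a-3p was highest in replicate 3 and lowest in replicate 2 at each week (624.4 ± 123, 489.9 ± 58.9 and 427.9 ± 28.8 CPM for replicates 3, 1 and 2), W = 1. Its replicates 1 and 2 lay close at week 7 (457.8 and 446 CPM) and week 10 (454 and 443.1 CPM). With counting errors of 4.04% to 5.83%, their order at these weeks is uncertain. miR-21 was highest in replicate 1 at each week (1290 ± 160 CPM), W = 0.778 (exact p = 0.194). The order of all 3 count ratios, which need no scaling, was the same at each week (W = 1). For miR-191 to miR-199a-3p this follows from the opposite orders of both miRNAs, so it adds nothing to them. The exact p of W = 1 is 0.0278, the smallest that 36 arrangements can give, and 0.0667 after adjustment over 12 tests, so none passed. In CTRL, W lay between 0.111 and 0.444. Without TMM, W of miR-199a-3p in OBESE was 0.111 (exact p = 0.944), and with DESeq2 size factors 0.778 (exact p = 0.194), while that of miR-191 was 1 with each. The labels do not say whether a number is the same ewe at each week, and whether the diets differ in W was not tested.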
